A study of Mus musculus with 6 samples.

Results

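Transcripts of 30 genes of cholesterol and fatty acid synthesis were followed in whole left lungs of mice. The genes were taken by symbol from a listed set, all 30 were found among the 23194 genes of the deposited table, and all 30 passed the filter on low counts. They comprised 13 enzymes of sterol synthesis, 5 regulators or carriers of sterols, 3 genes of sterol export and 9 genes of fatty acid synthesis. RNA sequencing compared 3 naive lungs with 3 injured lungs, the latter after 4 h of left pulmonary artery ligation followed by 24 h of reperfusion. All 6 libraries came from adult wild type C57BL/6 mice and from left lung tissue. A general protocol text also mentions a longer ligation, and the labels mention no sham operation for naive mice, so effects of surgery and of ischemia cannot be told apart. Each lung was taken as 1 mouse, and p-values measure the spread between these lungs.

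Cholesterol is built from acetyl-CoA through mevalonate, farnesyl diphosphate, squalene and lanosterol. The SREBP transcription factors, held in the endoplasmic reticulum by SCAP and INSIG proteins when sterols are plentiful, are released when sterols run low and switch on the enzymes. SREBP-2 acts mainly on cholesterol genes and SREBP-1 mainly on fatty acid genes, while the liver X receptors respond to sterol excess and switch on export pumps. In the lung, alveolar type 2 cells make fatty acids for surfactant lipid, and macrophages take up and export surfactant cholesterol.

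SREBP proteins bind sterol regulatory elements, often beside CCAAT boxes bound by NF-Y. Windows of 300 bases, 250 before and 50 after a RefSeq start site (GRCm38.p6), were found for 22 of the 30 genes and 10 of the 13 sterol enzymes. The letters CCAAT, searched on both strands, were in a window of 10 of these 10 sterol enzymes, against 41.1% of all 27025 genes with a window. Counted by window, 10 of 12 held the letters (83.3%), against 37.4% of all 32851 windows. The letters were also in 16 of all 22 member genes with a window (72.7%), and in 66.7% to 72.7% of genes in the 3 lists of related pathway genes described later. TCACNCCAC, a form of the sterol regulatory element, was in 1 of the 22 genes with a window, Hmgcs1, against 1.44% of all genes. The E-box CACGTG was in 5 of the 22 genes against 8.09% of all genes. A direct repeat of GGTCA with 5 bases between the copies, a form bound by liver X receptors, was in 0 of the 22 against 0.0851%. No CCAAT match overlapped the element of Hmgcs1. The 3 sterol enzyme windows with the most CCAAT matches are shown. A link between the box and transcript levels was not tested. Capitals mark CCAAT or its complement ATTGG and, in Hmgcs1, the element TCACCCCAC at -137 from the start site. The windows lie at chr13:119690101-119690400 for Hmgcs1, chr5:114444019-114444318 for Mvk and chrX:72918271-72918570 for Nsdhl, all on the plus strand.
Hmgcs1: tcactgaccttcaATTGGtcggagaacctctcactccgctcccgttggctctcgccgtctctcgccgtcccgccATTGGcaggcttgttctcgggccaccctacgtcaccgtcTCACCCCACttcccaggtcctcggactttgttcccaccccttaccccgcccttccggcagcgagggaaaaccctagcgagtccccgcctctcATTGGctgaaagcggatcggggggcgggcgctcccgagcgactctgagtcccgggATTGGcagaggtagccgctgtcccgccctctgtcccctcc
Mvk: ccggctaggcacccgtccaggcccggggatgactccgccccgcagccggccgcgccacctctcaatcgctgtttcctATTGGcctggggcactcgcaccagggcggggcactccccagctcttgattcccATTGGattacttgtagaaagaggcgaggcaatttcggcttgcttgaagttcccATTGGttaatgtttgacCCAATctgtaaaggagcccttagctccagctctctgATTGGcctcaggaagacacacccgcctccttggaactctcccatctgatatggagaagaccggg
Nsdhl: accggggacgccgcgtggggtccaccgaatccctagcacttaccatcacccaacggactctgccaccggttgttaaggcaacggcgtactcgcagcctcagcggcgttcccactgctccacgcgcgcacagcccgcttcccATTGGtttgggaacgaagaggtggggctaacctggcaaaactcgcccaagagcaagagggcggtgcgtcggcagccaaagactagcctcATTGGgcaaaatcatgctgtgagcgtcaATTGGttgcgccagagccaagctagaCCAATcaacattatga
Hmgcs1 held 4 CCAAT matches and 1 element, Mvk held 5 matches and Nsdhl held 4. A match describes the letters of a window and is not evidence of binding.

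Between genes, levels were compared as the deposited FPKM, a count scaled by gene length and library total. Scd1, a desaturase that makes monounsaturated fatty acids, had the most abundant transcript of the 30, at 378 ± 96.6 FPKM (SD, n = 3) in naive and 533 ± 249 FPKM in injured lungs. Scd2, its close relative, followed with 208 ± 28.8 FPKM in naive lungs. Elovl1, which lengthens saturated very long chain fatty acids, stood at 179 ± 27.1 FPKM. The spreads of Scd2 and Elovl1 overlapped, so their order is not resolved. Fasn, the fatty acid synthase, had 83.8 ± 7.96 FPKM and Acly, which supplies cytosolic acetyl-CoA, had 72.9 ± 5.07 FPKM, again with overlapping spreads. Sterol enzymes lay lower, from 43.1 ± 8.42 FPKM for Fdps, the farnesyl diphosphate synthase, down to 4.25 ± 1.35 FPKM for Lss, the lanosterol synthase. Elovl6, which lengthens palmitate, had the least abundant transcript of the set, at 1.52 ± 0.214 FPKM in naive and 1.52 ± 0.249 FPKM in injured lungs. Levels of the 30 genes thus ranged widely while the 2 groups of lungs lay close to each other.

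**Figure D1:**
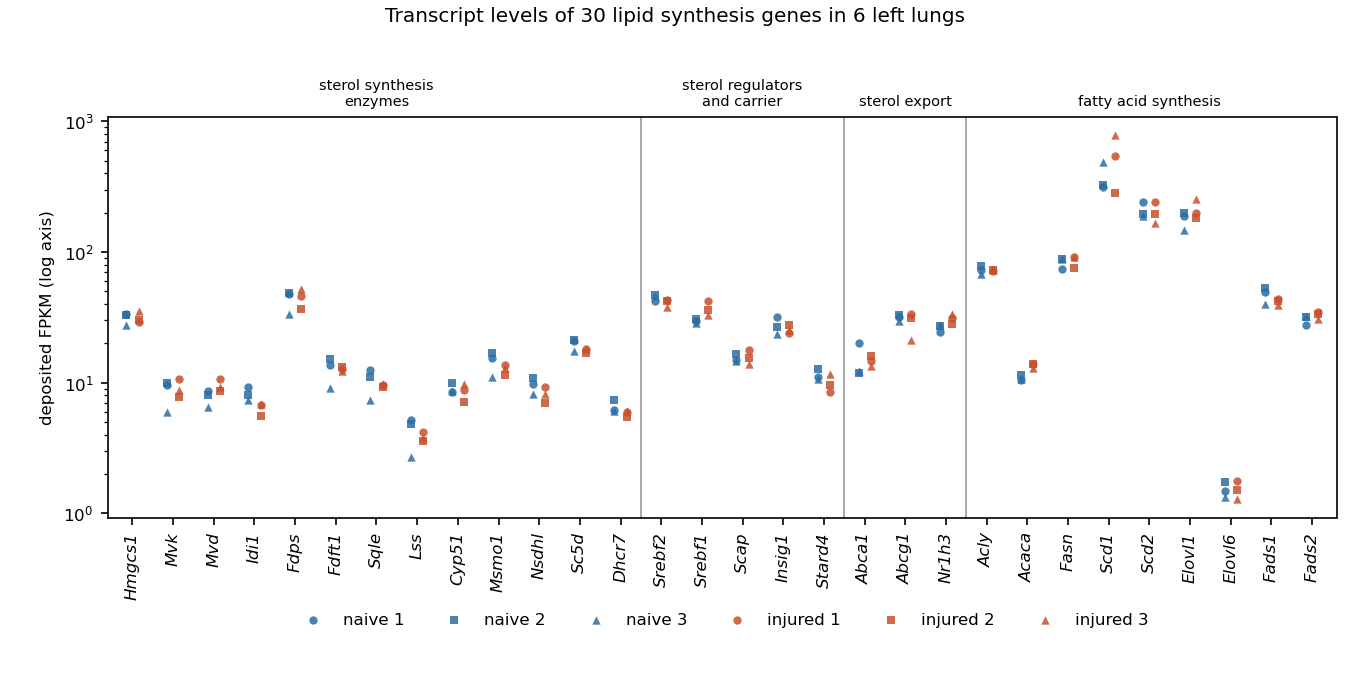
Deposited FPKM (log axis) of the 30 genes in each of 6 lungs, with naive lungs in blue, injured lungs in orange and a symbol for each replicate. Scd1, Scd2 and Elovl1 lie at the top and Elovl6 at the bottom, and points of both groups mix for most genes.

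Differences between the groups were tested on counts. Levels below are CPM, counts scaled to a common library size with TMM factors, and log2 fold changes compare injured with naive lungs, from edgeR's quasi-likelihood test, with Benjamini-Hochberg adjusted p over 15486 genes and a 95% interval that is not adjusted. None of the 30 genes passed an adjusted p of 0.05 in edgeR, 0 higher and 0 lower, where 3.11% of all genes tested passed (2.16% higher and 0.956% lower). At an unadjusted p under 0.05 there were 2 higher, Srebf1 and Acaca, and 1 lower, Idi1, against 9.06% and 7.66% of all genes (16.7% in either direction). DESeq2 called 1 of the 30, Acaca, where it called 585 higher and 417 lower of all 15486 genes. limma-voom called 0 of the 30, against 308 higher and 136 lower of all genes. Of the 30 genes, Acaca alone had in the authors' deposited table an adjusted p under 0.05, at 0.0457. The median log2 fold change of the 30 was -0.02 and that of all genes tested was 0.00, with 11 positive and 19 negative values. In bulk lung, fewer cells of a type and less RNA per cell cannot be told apart. Values ran from -0.38 for Idi1 to 0.48 for Scd1.

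The intervals give the sizes that these lungs leave possible. For 29 of the 30 genes the 95% interval lay within a 2-fold change in either direction, against 79% of all genes tested. For 26 of the 30 it lay within 1.5-fold, against 56.9% of all genes. The shares over all genes were not matched for abundance, and intervals are wider at low counts. The median ratio of the highest to the lowest lung was 1.44 for the 30 genes and 1.44 for all genes tested. The exceptions at 1.5-fold were Scd1, Idi1, Lss and Mvd, named after their values were seen. Every injured lung lay above every naive lung for 3 genes, Mvd, Srebf1 and Acaca, and below for 2, Idi1 and Dhcr7, where 12.3% and 10.6% of all genes did so. The other 25 genes overlapped between groups.

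**Figure D2:**
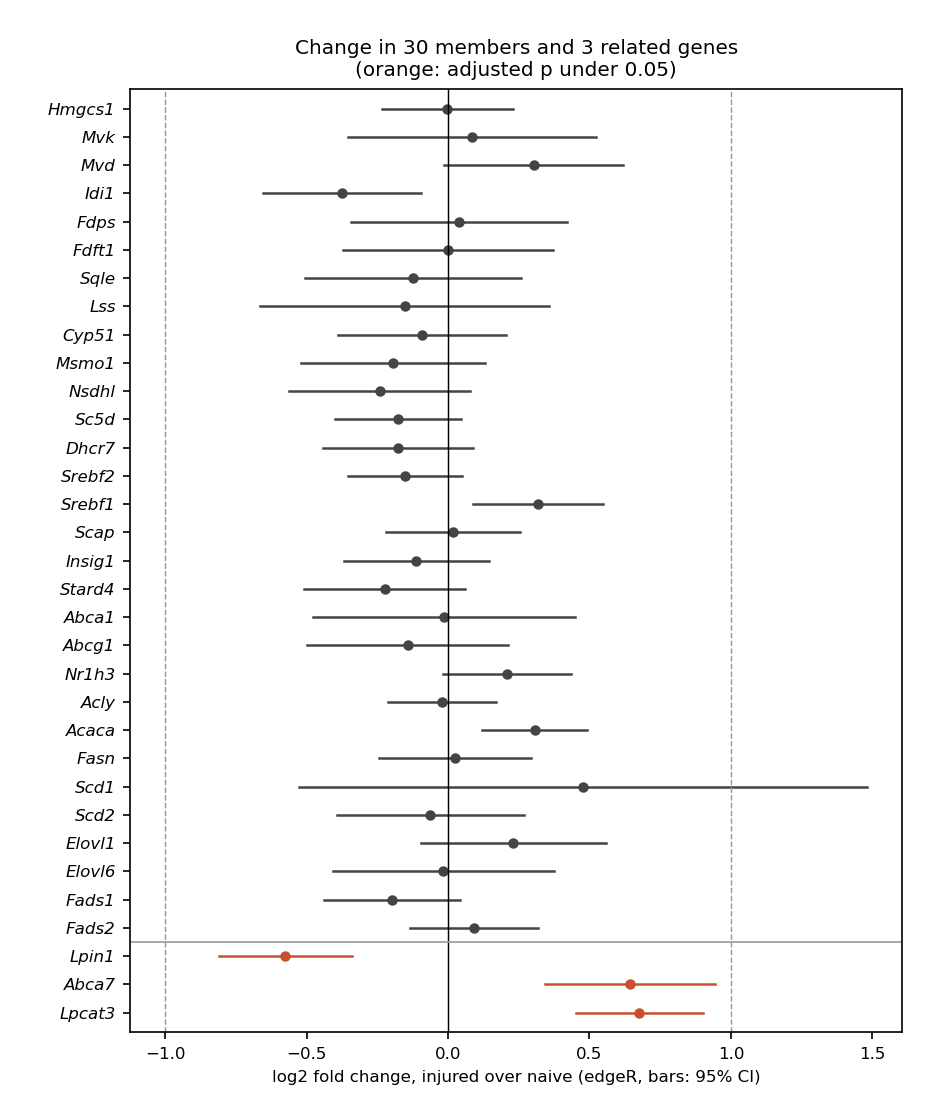
Log2 fold changes from edgeR, injured over naive, with 95% intervals for the 30 genes and, under the line, 3 related genes. Dashed lines mark a 2-fold change, which the interval of Scd1 passes, and the 3 genes in orange, Lpin1, Abca7 and Lpcat3, passed an adjusted p of 0.05.

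Among the 13 sterol synthesis enzymes, 0 were called, where 3.11% of all genes were. The median log2 fold change was -0.13 and 10 values were negative. Idi1, which isomerises isopentenyl diphosphate (chr13:8885501-8892451 in mm10, the build of all gene positions here), had 27.8, 24.5 and 22.9 CPM in naive replicates 1 to 3 and 20.5, 16.8 and 20.7 CPM in injured replicates 1 to 3. The injured lungs all lay below the naive lungs, with a log2 fold change of -0.38 ± 0.12 (SE, 95% interval -0.66 to -0.10, adjusted p = 0.160 in edgeR). Mvd, the decarboxylase that makes isopentenyl diphosphate one step earlier, had 15.0, 14.2 and 11.6 CPM in naive lungs and 18.9, 15.2 and 16.3 CPM in injured ones. Its injured lungs all lay above the naive ones, the nearest by a small margin (log2 fold change 0.30 ± 0.14, interval -0.01 to 0.62, adjusted p = 0.322 in edgeR). Nsdhl, a sterol dehydrogenase of the demethylation steps, had 20.9, 23.5 and 18.2 CPM in naive lungs and 20.1, 15.0 and 17.8 CPM in injured ones. Its groups overlapped, injured replicate 2 being the lowest (log2 fold change -0.24 ± 0.14, interval -0.56 to 0.08, adjusted p = 0.449 in edgeR). Hmgcs1, which makes HMG-CoA and whose window holds the element above, had 102 ± 8.61 CPM in naive lungs and 102 ± 10.1 CPM in injured ones (interval -0.23 to 0.23). The other 9 enzymes, Mvk, Fdps, Fdft1, Sqle, Lss, Cyp51, Msmo1, Sc5d and Dhcr7, had log2 fold changes between -0.20 and 0.09. Fdft1 overlaps Ctsb on the opposite strand by 767 bases, and the strand setting of the counting is not given in the sources used here, so its counts are uncertain.

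Lungs of 1 group differed among themselves in these enzymes, in a pattern noticed after the values were seen. Naive replicate 3 was the lowest of the naive lungs for 11 of 13 enzymes, against 38.5% of all genes tested, and injured replicate 2 was the lowest injured lung for 11 of 13, against 32.7%. All 13 enzymes had their lowest value of the 6 lungs in 1 of these 2 lungs, against 34.6% of all genes. The summed level of the 13 was 525.9, 536.7 and 407.5 CPM in naive replicates 1 to 3 and 474.8, 425.8 and 492.6 CPM in injured replicates 1 to 3. The injured sums lay within the naive range. Lss had 36.3, 33.8 and 19.4 CPM in naive lungs against 29.0, 24.9 and 26.4 CPM in injured ones. Sqle, the squalene epoxidase, had 55.7, 49.6 and 33.5 CPM in naive lungs against 42.7, 40.9 and 43.5 CPM in injured ones. In both, naive replicate 3 was the lowest of the 6 lungs and the other naive lungs were the highest, with the injured lungs between them. Lss and Sqle were picked as examples after their values were seen.

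Clock genes also set naive replicate 3 apart. Arntl, the activator of the circadian clock, had 4.20, 2.43 and 27.7 CPM in naive lungs and 21.1, 15.6 and 20.2 CPM in injured ones. Dbp, an output gene of the clock, had 116, 215 and 23.8 CPM in naive lungs and 28.0, 60.7 and 31.7 CPM in injured ones. Both were named after their values were seen. Naive replicate 3 thus lay with the injured lungs in Arntl and Dbp and apart from the other naive lungs. Of the 15 clock genes edgeR called 0, with 12 negative values and a median of -0.61. At an unadjusted p under 0.05 in edgeR 4 were lower, against 7.66% of all genes. DESeq2 called 4 lower (Ciart, Cry2, Nr1d1 and Per2), against 417 lower of all 15486 genes. limma-voom called 0. Without naive replicate 3 edgeR called 9 of the 15, with Arntl, Clock and Npas2 higher and Ciart, Cry2, Hlf, Per2, Per3 and Tef lower. Over all 15719 genes tested in that setting, edgeR called 294 higher and 146 lower. The summed level of the 15 clock genes ran from 970 to 1868 CPM in naive lungs and from 856 to 1161 CPM in injured ones. The part of the clock in the spread of the sterol enzymes was not tested. Without naive replicate 3, 12 of the 13 enzymes had negative log2 fold changes with a median of -0.22, 6 were lower at an unadjusted p under 0.05 (Idi1, Lss, Sqle, Msmo1, Sc5d and Nsdhl) where 8.24% of all genes were, and 0 passed adjustment, the lowest adjusted p being 0.0934 for Lss in edgeR. Without naive replicate 1, 6 of 13 were negative with a median of 0.01. With library size alone in place of TMM, 8 of 13 were negative.

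**Figure D3:**
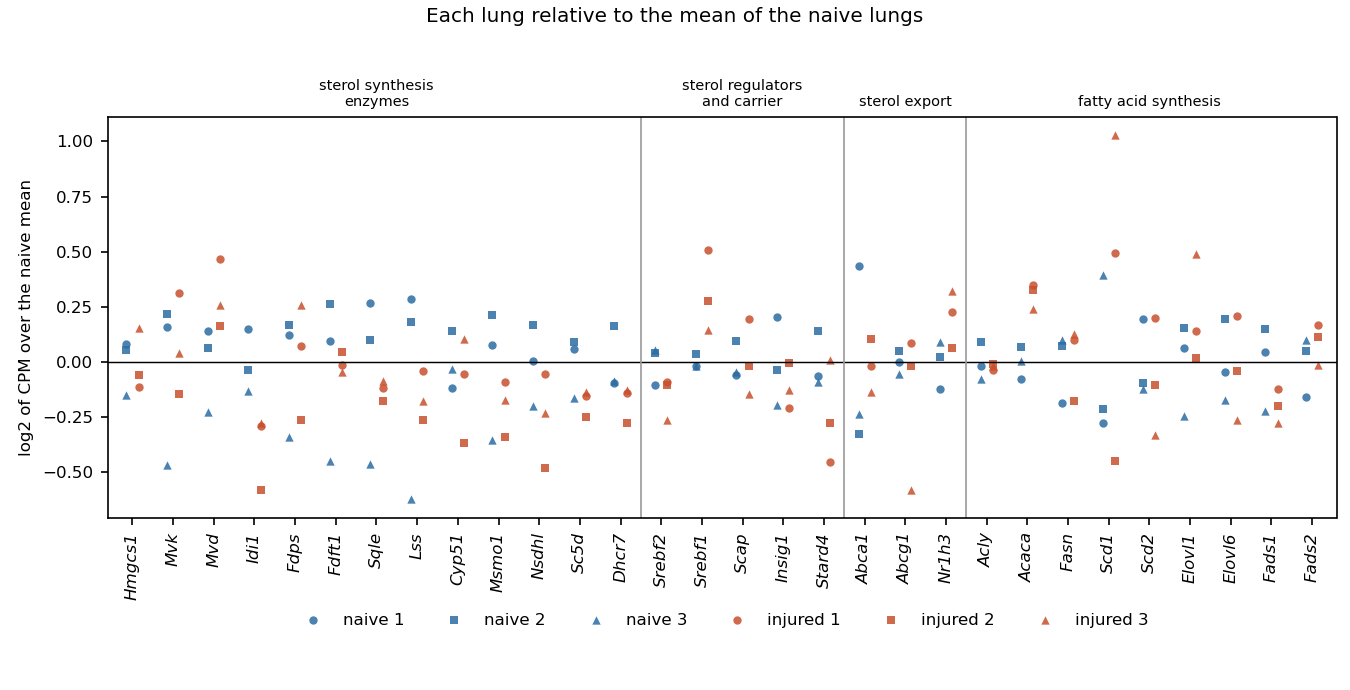
CPM of each lung over the mean of the naive lungs, on a log2 scale, for the 30 genes, with naive lungs in blue and injured lungs in orange. Among the sterol enzymes naive replicate 3 (blue triangles) or injured replicate 2 (orange squares) lies lowest in all 13, and injured replicate 3 lies highest in Scd1.

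The regulators and the carrier had 0 of 5 calls, against 3.11% of all genes, and a median of -0.11. Srebf1, which encodes the SREBP-1 proteins (chr11:60199089-60222581), had 126, 131 and 126 CPM in naive lungs and 182, 155 and 142 CPM in injured ones. The naive lungs were close to each other and all injured lungs lay above them (log2 fold change 0.32 ± 0.10, interval 0.09 to 0.55, adjusted p = 0.149 in edgeR). The gene counts do not separate its 2 main protein forms, SREBP-1a and SREBP-1c. It overlaps Rai1 at one end on the opposite strand, with the same uncertainty as Fdft1. Srebf2, which encodes SREBP-2, had 210, 233 and 235 CPM in naive lungs and 212, 210 and 189 CPM in injured ones. Its groups overlapped by a narrow margin (log2 fold change -0.15 ± 0.09, interval -0.35 to 0.05, adjusted p = 0.451 in edgeR). Stard4, a cytosolic sterol carrier, had 56.4, 64.8 and 55.3 CPM in naive lungs and 43.0, 48.6 and 59.3 CPM in injured ones, injured replicate 3 lying among the naive lungs (log2 fold change -0.22 ± 0.13, interval -0.51 to 0.06, adjusted p = 0.420 in edgeR). Scap, the SREBP escort, had 65.3 ± 3.95 CPM in naive lungs and 66.1 ± 8.07 CPM in injured ones. Insig1, the retention protein, had 73.9 ± 10.4 CPM in naive lungs and 68.3 ± 4.89 CPM in injured ones.

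None of the 3 sterol export genes was called, where 3.11% of all genes were. All 3 overlapped between groups, where 12.3% of all genes lay wholly above and 10.6% wholly below. The median log2 fold change of the 3 was -0.01. Abca1, the pump that loads cholesterol onto apolipoproteins, had 205, 121 and 129 CPM in naive lungs and 150, 163 and 138 CPM in injured ones. Naive replicate 1 was the highest of the 6 lungs and the other naive lungs the lowest (log2 fold change -0.01 ± 0.20, interval -0.48 to 0.45, adjusted p = 0.984 in edgeR). Without naive replicate 1 the log2 fold change was 0.26 (adjusted p = 0.294 in edgeR, the lowest of all settings, over which it reached 0.997). Abcg1, which exports sterol to HDL and is prominent in alveolar macrophages, had 114, 118 and 110 CPM in naive lungs and 121, 113 and 76.2 CPM in injured ones. Injured replicate 3 alone lay below the others (log2 fold change -0.14 ± 0.16, interval -0.50 to 0.21, adjusted p = 0.721 in edgeR), and without it the value was 0.04. Nr1h3, the liver X receptor alpha, had 48.6, 53.8 and 56.4 CPM in naive lungs and 62.0, 55.3 and 66.3 CPM in injured ones. Naive replicate 3 lay just above injured replicate 2 (log2 fold change 0.21 ± 0.10, interval -0.02 to 0.43, adjusted p = 0.338 in edgeR).

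The 9 fatty acid synthesis genes had 0 calls, against 3.11% of all genes, and a median of 0.02. Acaca, the acetyl-CoA carboxylase that makes malonyl-CoA (chr11:84129672-84401651), had 98.8, 109.1 and 104 CPM in naive lungs and 133, 131 and 123 CPM in injured ones. The groups did not overlap and each was tight. Its log2 fold change of 0.31 ± 0.08 (interval 0.12 to 0.49) had the lowest adjusted p of the 30 genes, 0.0886 in edgeR. DESeq2 placed it under the threshold (adjusted p = 0.0323), and over all settings the adjusted p ran from 0.0323 to 0.256 with log2 fold changes from 0.26 to 0.34. Elovl1 had 340, 362 and 275 CPM in naive lungs and 359, 330 and 457 CPM in injured ones. Its groups overlapped, with naive replicate 3 lowest and injured replicate 3 highest (log2 fold change 0.23 ± 0.14, interval -0.09 to 0.56, adjusted p = 0.481 in edgeR).

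Scd1 (chr19:44394451-44407709) varied most between lungs. It had 1522, 1590 and 2424 CPM in naive lungs and 2596, 1352 and 3761 CPM in injured ones. Injured lungs included both the lowest and the highest of the 6, a 2.78-fold range, where the median gene tested spanned 1.44-fold (log2 fold change 0.48 ± 0.40, interval -0.53 to 1.48, adjusted p = 0.640 in edgeR). The value was 0.10 without injured replicate 3 and 0.78 without injured replicate 2. Scd1 alone made up 24.9% to 47.4% of the summed CPM of the 30 genes. The other 8 fatty acid genes summed to 2995, 2973 and 2796 CPM in naive lungs and 3195, 2762 and 2877 CPM in injured ones, with overlapping groups. Scd2, a neighbour on the same chromosome, had 1304, 1066 and 1044 CPM in naive lungs and 1306, 1060 and 905 CPM in injured ones, and did not show the order of Scd1. The Scd genes are near copies, so reads may be split between them.

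Scd1 is also abundant in fat cells. Adipoq, the adiponectin gene of adipocytes, had 1.31, 13.6 and 6.12 CPM in naive lungs and 1.14, 0.443 and 6.54 CPM in injured ones (named after its values were seen). Cfd, the most abundant adipocyte marker by CPM, had 9.55, 102 and 59.8 CPM in naive lungs and 13.2, 6.91 and 60.4 CPM in injured ones. In the injured lungs both markers had the same order as Scd1, with replicate 3 highest and replicate 2 lowest. In the naive lungs the order differed, replicate 2 being highest in both markers and replicate 3 in Scd1. Of 8 adipocyte markers tested, 0 were called by edgeR, DESeq2 or limma-voom and 0 had an unadjusted p under 0.05 in edgeR, with 8 negative values, and their summed level ran from 51.3 to 320.4 CPM in naive lungs and from 41.4 to 153.8 CPM in injured ones. Their part in the spread of Scd1 was not tested.

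The remaining fatty acid genes lay closer to zero. Fasn had 808 ± 85.1 CPM in naive lungs and 822 ± 91.8 CPM in injured ones, with a log2 fold change of 0.02 and an interval of -0.24 to 0.29. Acly had 324 ± 19.3 and 320 ± 3.29 CPM in the same order, with an interval of -0.21 to 0.17. Fads1 and Fads2, the desaturases that make arachidonic acid and related fatty acids, had log2 fold changes of -0.20 (interval -0.44 to 0.04) and 0.09 (interval -0.13 to 0.32). Elovl6 had 9.11 ± 1.195 CPM in naive lungs and 8.99 ± 1.47 CPM in injured ones.

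Further genes of these pathways were listed by function, 54 in all, of which 49 were tested. edgeR called 2 of the 49 higher and 1 lower, where it called 2.16% and 0.956% of all genes. In the list headed sterol export and storage (11 tested), Lpcat3 and Abca7 rose in edgeR, although Lpcat3 encodes a phospholipid enzyme. DESeq2 also called Ch25h, which makes 25-hydroxycholesterol (log2 fold change 1.11, adjusted p = 0.0342, named after its values were seen). Of all 15486 genes, DESeq2 called 585 higher. Lpcat3, an enzyme that places polyunsaturated fatty acids into phospholipids and is a known liver X receptor target (chr6:124663027-124704418), had 52.4, 47.3 and 57.4 CPM in naive lungs and 80.0, 80.9 and 90.5 CPM in injured ones. The groups were far apart relative to their spread (log2 fold change 0.68 ± 0.10, interval 0.45 to 0.90, adjusted p = 0.00758 in edgeR), and it was called in all 14 settings tried. Lpcat3 overlaps Emg1 on the opposite strand by 38 bases, and the strand setting of the counting is not known. Abca7, a lipid transporter also linked to phagocytosis, had 49.5, 43.3 and 44.7 CPM in naive lungs and 87.5, 65.6 and 61.9 CPM in injured ones. All injured lungs lay above the naive ones (log2 fold change 0.64 ± 0.13, interval 0.34 to 0.94, adjusted p = 0.0325 in edgeR). Its call was lost when any 1 library except injured replicate 3 was left out, at adjusted p up to 0.151. The median of the 11 was 0.26. At an unadjusted p under 0.05 in edgeR 5 of the 11 were higher and 0 lower, against 9.06% and 7.66% of all genes. Every injured lung lay above every naive lung for 6 of the 11, against 12.3% of all genes.

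In the list headed sterol synthesis and uptake beyond the 30 (15 tested), edgeR called 1, Lpin1. Lpin1 was placed in this list although its enzyme acts in glyceride synthesis, so its call is not one of a sterol enzyme. DESeq2 also called Npc2, which moves cholesterol out of lysosomes (log2 fold change 0.48, adjusted p = 0.0392, named after its values were seen). Lpin1, a phosphatidate phosphatase of glyceride synthesis and a regulator of lipid gene transcription (chr12:16535669-16589770), fell from 64.9, 76.7 and 78.0 CPM in naive to 45.2, 53.5 and 48.6 CPM in injured ones. No injured lung reached a naive one (log2 fold change -0.58 ± 0.10, interval -0.81 to -0.34, adjusted p = 0.0195 in edgeR). The call was lost without naive replicate 2 (adjusted p = 0.0919) or injured replicate 1 (adjusted p = 0.0915), over a range from 0.000232 to 0.0919 in all settings. The median of the 15 was 0.01. In the separate list of 23 tested genes of fatty acid and glyceride synthesis, which does not hold Lpin1, edgeR called 0. At an unadjusted p under 0.05, 1 was higher and 2 lower, against 16.7% of all genes in either direction, and the median was -0.02. Lpcat1, an enzyme of surfactant lipid remodelling, had the highest mean CPM of them in naive lungs, a scale that does not correct for length. It had 596 ± 64.7 CPM in naive lungs and 639 ± 49.7 CPM in injured ones. DESeq2 called 2 of the 23, Dgat1 higher and Thrsp lower (named after their values were seen), and limma-voom called 0. Over all 15486 genes DESeq2 called 585 higher and 417 lower. Over the 14 settings Thrsp was called in 4 and Dgat1 in 3. The log2 fold change of Thrsp ran from -1.87 to -1.10 and that of Dgat1 from 0.49 to 0.71. Of 16 fatty acid oxidation and fasting genes edgeR called 0, DESeq2 called 1 higher (Acot1) and limma-voom 0, and 2 were higher at an unadjusted p under 0.05, against 9.06% of all genes, with a median of 0.09.

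**Figure D4:**
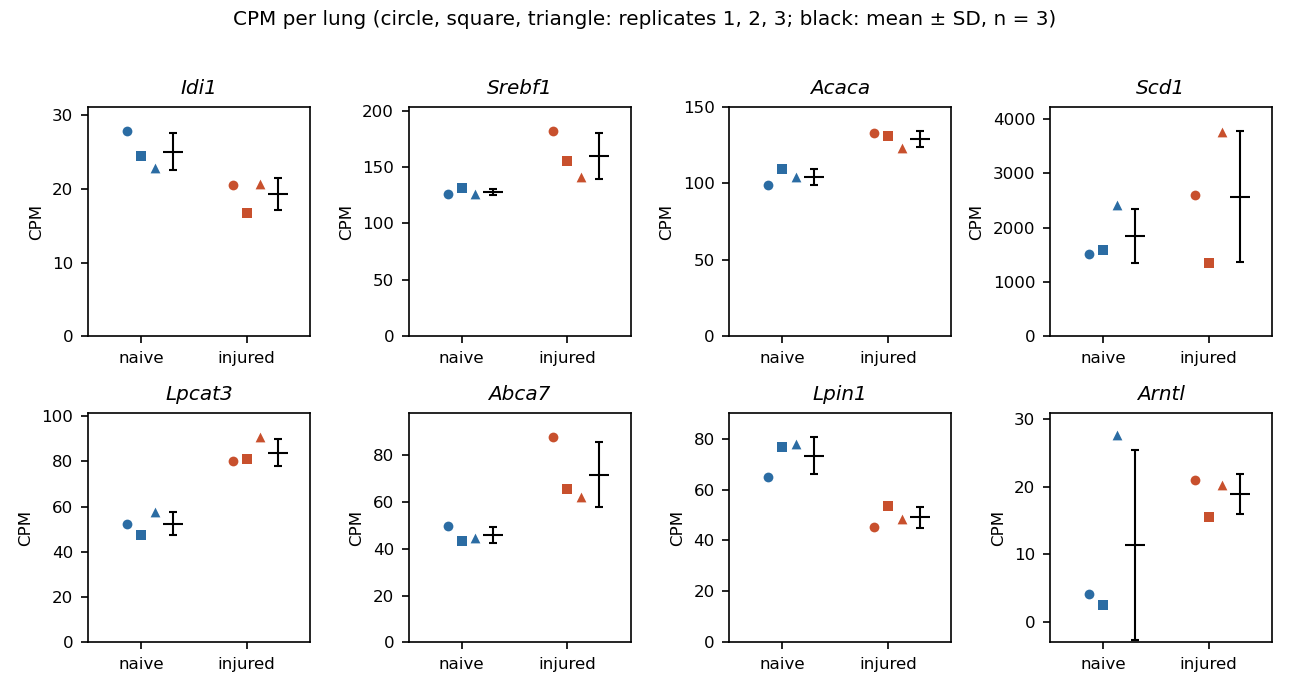
CPM per lung for 4 of the 30 genes (Idi1, Srebf1, Acaca, Scd1), for 3 related genes and for the clock gene Arntl, with the mean ± SD of 3 lungs in black. Lpcat3 and Lpin1 separate the groups, Scd1 spreads from 1352 to 3761 CPM within injured lungs, and naive replicate 3 stands apart in Arntl.

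Total counts ran from 18913487 to 34986276 per library, and each of the 30 genes had at least 180 counts in every library. Sftpc, the surfactant protein that marks alveolar type 2 cells, lay between 13755 and 16904 CPM in the 6 lungs. Of 12 type 2 cell markers edgeR called 0, where it called 2.16% of all genes higher and 0.956% lower. At an unadjusted p under 0.05 in edgeR 4 were higher and 1 lower, against 9.06% and 7.66% of all genes. For 5 of the 12 all injured lungs lay above all naive ones, against 12.3% of all genes. DESeq2 called 3 higher (Napsa, Sftpa1 and Sftpd), against 585 higher of all 15486 genes. limma-voom called 0. The 12 markers had sums of 30672 to 33450.5 CPM in naive lungs and 31345 to 34944 CPM in injured ones. Neutrophil markers had 9 of 10 called higher by edgeR, against 2.16% of all genes. Their sums were 63.4 to 98.4 CPM in naive lungs and 644.8 to 1406 CPM in injured ones. Markers of monocytes and recruited macrophages had 7 of 12 called higher by edgeR, against the same 2.16%. Their sums were 880 to 1087 CPM and 1494 to 1803 CPM in the same order. Alveolar macrophage markers had 1 of 12 called higher by edgeR, Chil3, against the same 2.16%, and 3 by DESeq2 (also Atp6v0d2 and Marco). Their sums were 1101 to 1430 CPM and 1729 to 1832 CPM in the same order. The median log2 fold change of these 12 was only 0.05, with 8 positive and 4 negative values. Every injured lung lay above every naive lung for 3 of them, against 12.3% of all genes. Of 9 fibroblast markers edgeR called 1 higher (Lpl) and 2 lower (Npnt and Itga8), against 2.16% and 0.956% of all genes. DESeq2 also called Plin2 higher. Sums of the 9 were 3768 to 4684 CPM in naive lungs and 3297 to 3476 CPM in injured ones. Of 7 endothelial and 5 heart muscle markers 0 were called by edgeR, DESeq2 or limma-voom. In each of these lists 1 was lower at an unadjusted p under 0.05 in edgeR, against 7.66% of all genes. Abca7 and Lpcat3 moved in the same direction as the neutrophil and monocyte markers, whose part in both rises was not tested.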

How the data were processed

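Per the file headers, the authors' deposited table holds read counts per gene, FPKM, a normalized signal (counts divided by 1 factor per library) and the authors' log2 fold change with p-values. Tools named in the submitters' processing notes include STAR, HTSeq and DESeq2, with build mm10. Their versions and the strand setting are not given here by any source. The deposited FPKM was recovered from counts, lengths and totals. Counts were analysed in R 4.3.3 with edgeR 4.0.16 (filterByExpr, TMM, robust quasi-likelihood F test, group as the only term, 15486 genes), and alternatives used limma 3.58.1 and DESeq2 1.42.0. The procedure was run on simulated counts whose planted changes exceeded every log2 fold change among the members. Recovery of changes as small as theirs was not tested.

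The members and lists were chosen with earlier results of these data known. Values per lung are given for the 3 members with the largest absolute log2 fold change in each of 4 sub-groups and for called members. Of other lists, called genes are named, up to 4 a list, or else the most abundant gene by CPM. Genes named outside this rule are Hmgcs1, Lss, Sqle and Scd2, other members given by means or log2 fold changes, and those said to be so. Of the listed genes, 1 adipocyte marker was not matched, and 8 members had no promoter window. No 2 libraries agreed within sampling noise. Counting error is small at these depths, so replicate spread sets the precision.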

Additional observations from a re-analysis of the deposited data

How the results depend on the processing

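Alternatives were RLE size factors, unscaled library sizes, keeping all genes, requiring 1 CPM in 3 libraries, DESeq2, limma-voom, the replicate number as a block and leaving out each library. Among the 30 genes 0 were called lower in any of them, and 1, Acaca, was called higher, by DESeq2 only. Over all genes, edgeR called 334 higher and 148 lower, DESeq2 585 and 417, and edgeR with no filter 269 lower, while leaving out 1 library gave 145 to 333 higher and 48 to 146 lower. Related pathway genes called higher numbered 5 by DESeq2 and 1 to 3 with a library left out, and those called lower 2 by DESeq2, with no filter or with the replicate block, and 0 to 2 with a library left out. The log2 fold change of Abca1, -0.01 with all libraries, was 0.024 by limma-voom and 0.024 with the replicate block. With 1 library left out it ran from -0.16 to 0.26, being positive without naive replicate 1 or injured replicate 3 (0.044). That of Abcg1 ran from -0.27 to 0.036, the last being without injured replicate 3. The cause was not tested. The labels give same-numbered lungs no link beyond the number. The correlations of their deviations were 0.07, -0.08 and 0.15, and naive replicate 1 correlated best with injured replicate 2 (0.28). Deviations from means of 3 lungs cannot decide whether lungs were paired or shared a batch. With the replicate block 0 of the 30 genes were called, and 413 genes were higher and 208 lower over all genes.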
